A study of Homo sapiens with 18 samples.

Results

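Open chromatin was profiled by bulk ATAC-seq in Ccd18-Co, an established line of human colon fibroblasts, and 1973 peaks were lower in every belinostat library than in any other library. They were selected on these measured values. A peak entered when its counts over the 18 libraries summed to at least 100 and when its CPM (the count scaled to the library's count in all peaks) in all 6 belinostat libraries lay under the lowest of the other 12. Of the 334857 peaks in the table, 181571 reached the sum of 100, and the 1973 belinostat-low peaks were 1.09% of these. The same rule turned upward found 514 peaks that were high in every belinostat library. Applied to unstimulated cells it found 1500 low and 1609 high peaks, and applied to DMSO cells 78 low and 82 high peaks.

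The study asked whether an inflammatory fibroblast state, once set by cytokines, can be undone by drugs that act on chromatin. Each of 3 groups held 6 libraries of the same line. The labels give no cytokine or compound for unstimulated cells and do not say whether these received DMSO. The DMSO and the belinostat group both received 3 pulses of TNF, OSM and IL-17A at 10 ng/ml each with IL-1β at 0.1 ng/ml, every pulse lasting 72 h with 96 h to recover. After 1 week of rest they were given DMSO, the solvent, or 250 nM belinostat for 5 days, and cells were collected 2 weeks later. The doses are those on the sample labels. In the study's own text the belinostat concentration is higher, and in places the IL-1β concentration is lower. No group had belinostat without cytokines, so an action of belinostat on its own and one on cytokine-pulsed chromatin cannot be told apart. If unstimulated cells had no DMSO, cytokines and solvent cannot be told apart where DMSO and unstimulated cells are compared. All libraries came from 1 cell line, and since no source ties the libraries to separate cultures, p-values measure the spread between these libraries, which may be technical.

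Belinostat inhibits histone deacetylases, the enzymes that remove acetyl groups from histones. Acetylated histones are typical of active promoters and enhancers, and inhibitors of this kind are known to raise their level. In ATAC-seq a transposase inserts adaptors where DNA is free of nucleosomes, so a lower count at a peak means fewer insertions there. In a bulk sample, a site open in fewer cells and a site less open in each cell cannot be told apart. The E-box, a short palindromic DNA element, is bound by basic helix-loop-helix transcription factors, a family that includes the mesenchymal TWIST and TCF factors. AP-1, the dimer of FOS and JUN proteins, binds another short element and is known for its part in enhancers of fibroblasts.

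The sequences at the centres of 5 belinostat-low peaks are shown because the E-box word CAGCTG, described further on, was present in most of these peaks. Each is the central 200 bases in hg38, in lower case, with matches to CAGCTG and to the AP-1 word TGANTCA in capitals. The first 3 are among the peaks with the deepest falls, the peak inside UMODL1 held the most copies of the E-box word, and the last, on chromosome 2, holds neither word in this stretch.
Peak upstream of CDON, chr11:126124421-126124620, plus strand: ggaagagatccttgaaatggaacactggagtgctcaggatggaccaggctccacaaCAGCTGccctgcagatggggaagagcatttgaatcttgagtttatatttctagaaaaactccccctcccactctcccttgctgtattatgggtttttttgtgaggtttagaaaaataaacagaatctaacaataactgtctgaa
Peak near TRABD2B, chr1:48035450-48035649, plus strand: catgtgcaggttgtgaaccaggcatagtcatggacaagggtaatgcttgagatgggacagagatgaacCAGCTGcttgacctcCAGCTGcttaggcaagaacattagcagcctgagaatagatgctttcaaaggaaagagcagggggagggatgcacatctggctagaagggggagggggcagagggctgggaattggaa
Peak inside KIRREL3, chr11:126459767-126459966, plus strand: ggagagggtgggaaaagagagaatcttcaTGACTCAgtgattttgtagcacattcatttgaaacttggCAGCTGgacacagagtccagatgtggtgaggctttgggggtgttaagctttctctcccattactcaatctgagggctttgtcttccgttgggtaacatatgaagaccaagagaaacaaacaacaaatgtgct
Peak inside UMODL1, chr21:42112305-42112504, plus strand: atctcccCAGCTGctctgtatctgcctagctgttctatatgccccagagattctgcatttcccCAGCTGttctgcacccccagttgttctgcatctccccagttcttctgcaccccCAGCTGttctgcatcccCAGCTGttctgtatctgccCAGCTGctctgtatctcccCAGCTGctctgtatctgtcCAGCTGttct
Peak far from KLHL29, chr2:22499989-22500188, plus strand: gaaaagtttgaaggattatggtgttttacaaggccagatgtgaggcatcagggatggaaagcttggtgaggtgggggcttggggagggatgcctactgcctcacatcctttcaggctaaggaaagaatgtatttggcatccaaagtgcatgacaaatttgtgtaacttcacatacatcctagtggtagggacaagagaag

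Belinostat libraries were the shallowest and held the smallest share of their counts in the selected peaks, which the rule required. Counts in peaks ranged from 7077321 to 11352032 in unstimulated, 6488975 to 8066642 in DMSO and 4661678 to 6370845 in belinostat libraries. The belinostat-low peaks took 3.73% ± 0.133 of the counts of unstimulated libraries (mean ± SD, n = 6 in each group). DMSO libraries had 3.40% ± 0.156 and belinostat libraries 2.41% ± 0.0861. The group ranges were 3.62 to 3.97%, 3.22 to 3.63% and 2.31 to 2.51%, so DMSO and unstimulated libraries overlapped and belinostat libraries lay apart. The median peak had 14.0 ± 0.530 CPM in unstimulated cells, 12.6 ± 0.754 CPM in DMSO cells and 8.19 ± 0.254 CPM in belinostat cells. With every library thinned to the count of the shallowest, 1447 peaks met the rule and 1165 of them were among the 1973. Unstimulated library 6 had 11.3% of all peaks at a count of 0, the largest share of any library. Promoters of the fibroblast genes COL1A1, COL1A2 and PDGFRB were open at 21.8, 46.7 and 27.1 CPM on average in unstimulated cells, and THY1 had no peak within 1 kb of a start. COL3A1, DCN and LUM were lower, at 4.76, 5.72 and 4.19 CPM. Promoters of epithelial, immune and endothelial markers had no peak or levels that partly reached these, with 2.54 CPM at EPCAM, 4.01 CPM at CDX2, 0.324 CPM at CD3E and 11.9 CPM at CD14. Among smooth muscle markers, ACTG2 was at 23.7 CPM, above COL1A1, and DES and MYH11 were at 1.20 and 1.63 CPM. No promoter of a listed marker was a belinostat-low peak.

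**Figure D1:**
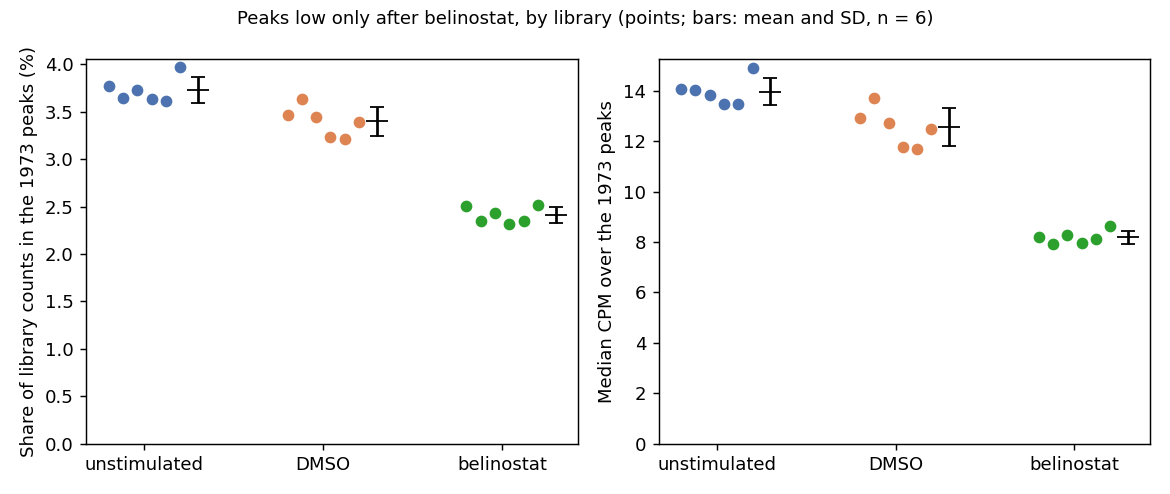
The share of each library's counts in the 1973 peaks (left, percent) and their median CPM (right) are plotted for the 3 groups, with points for libraries and bars for the mean and SD (n = 6). The belinostat points sit at 2.31 to 2.51% and 7.94 to 8.63 CPM, below all others, as the rule required, and the DMSO points lie mostly below the unstimulated ones.

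The fall was moderate at most sites. The mean belinostat CPM divided by the mean of the other 12 libraries, called the ratio here, had a median of 0.625 and ranged from 0.167 to 0.880. It was under 0.5 in 350 peaks and at or under 0.25 in 5. In 263 peaks, 13.3%, it lay over 0.75. Against DMSO cells alone the median ratio was 0.657, and against unstimulated cells 0.602. In the edgeR fit over all peaks, the belinostat minus DMSO log2 fold change of these peaks had a median of -0.69, with a range from -2.57 to -0.22, while the peaks with a sum of at least 100 had a median of -0.04. Of the 1973 peaks, 1789 had an adjusted p under 0.05 in that contrast, where 1.75% of all peaks were called closed, but the contrast chose the peaks and nothing is read from the count. The belinostat minus unstimulated log2 fold change had a median of -1.03.

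The rule also favoured strong peaks. The belinostat-low peaks had a median summed count of 1538, against 230 for the other peaks with a sum of at least 100, and a median width of 709 bp against 436 bp. With the peaks cut into 5 equal classes by sum, they made up 0.0109% of the lowest class and 4.14% of the highest. In 3 of the peaks a belinostat library had a count of 0, and 20 had a sum under 200. Peaks outside the list also moved with strength, their median belinostat minus DMSO log2 fold change going from 0.07 in the weakest class to -0.14 in the strongest. For this reason, position and word shares of other peaks are given below after weighting to the widths and summed counts of the belinostat-low peaks. Shares by gene list, GC class and chromosome are not weighted.

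Values near the limits of the rule were close together. Just inside, the highest belinostat library and the lowest other library were nearly equal at UBE2S, at 53.5 to 59.7 CPM in belinostat, 59.7 to 66.0 in DMSO and 67.0 to 76.1 in unstimulated cells. Just outside, an intergenic peak on chromosome 13 had 5.44 to 8.48 CPM in belinostat and 8.48 to 16.3 in DMSO cells. The smallest sum inside was 108, at an intron peak on chromosome 15 with a ratio of 0.494. The largest sum outside that met the rest of the rule was 91, at a peak in RERE with a ratio of 0.306.

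Named by the lowest ratio among peaks with a mean of at least 2 CPM, 12 peaks had the deepest falls, and 8 of them lay outside protein-coding genes. The lowest ratio, 0.167, belonged to chr11:126124172-126124869, in an exon of a non-coding transcript 61185 bp from the start of CDON, a cell surface co-receptor for hedgehog ligands. Its belinostat libraries had 1.29, 1.63 and 2.44 CPM (lowest, median and highest). DMSO libraries had 4.83, 9.07 and 13.4 CPM, and unstimulated libraries 9.62, 12.0 and 14.2 CPM. Belinostat libraries were nearly alike, and DMSO libraries were spread over the largest range. On the same chromosome, chr11:126459556-126460178 in an intron of KIRREL3, an adhesion protein of the immunoglobulin superfamily, had 2.15, 3.58 and 4.93 CPM in belinostat libraries. It had 11.2, 13.1 and 15.8 CPM in DMSO and 11.6, 12.0 and 13.7 CPM in unstimulated libraries, which overlapped.

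Whether cytokine-pulsed cells already lay lower than unstimulated cells differed among these 12 peaks. At KIRREL3, at MOB3B and at EDA2R, a TNF receptor family member for ectodysplasin A2, DMSO and unstimulated libraries overlapped. In the intron of EDA2R, at chrX:66622185-66622773, belinostat libraries had 1.02, 1.32 and 1.76 CPM, DMSO libraries 3.84, 4.39 and 5.96 CPM and unstimulated libraries 3.06, 4.17 and 5.71 CPM. In the intron of MOB3B, at chr9:27414149-27414832, they had 1.07, 1.74 and 1.95, then 4.01, 4.67 and 8.87, then 4.80, 6.51 and 7.09 CPM in the same order. At these 3 peaks the DMSO minus unstimulated log2 fold change was not past the threshold (edgeR's quasi-likelihood test, Benjamini-Hochberg adjusted p of 0.586, 0.106 and 0.717 for KIRREL3, MOB3B and EDA2R).

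Other peaks stepped down at both treatments. An intron peak of a non-coding gene on chromosome 11, chr11:112655242-112656052, lay 305628 bp from NCAM1, the neural cell adhesion molecule. It had 7.29, 9.41 and 10.7 CPM in unstimulated, 2.80, 4.12 and 5.33 CPM in DMSO and 1.41, 2.09 and 2.76 CPM in belinostat libraries, with no overlap between any groups. Its log2 fold change from unstimulated to DMSO cells was -1.34 ± 0.15 (SE, adjusted p = 6.01e-12 by edgeR's quasi-likelihood test). An intergenic peak, chr9:80797800-80798753, 891271 bp from the corepressor gene TLE1, went from 9.95, 13.0 and 14.4 CPM to 5.18, 6.80 and 7.11 CPM and then to 1.46, 2.47 and 4.23 CPM. A peak 163856 bp from GDF6, a ligand of the bone morphogenetic protein family, and one in an intron of WASHC1, a subunit of the actin-nucleating WASH complex, had log2 fold changes of -0.82 and -1.20 in the same comparison (edgeR adjusted p = 2.01e-05 and 8.83e-10). At GDF6 the DMSO range of 4.21 to 11.6 CPM reached into the unstimulated range of 7.40 to 12.0 CPM, and at WASHC1 it did not.

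**Figure D2:**
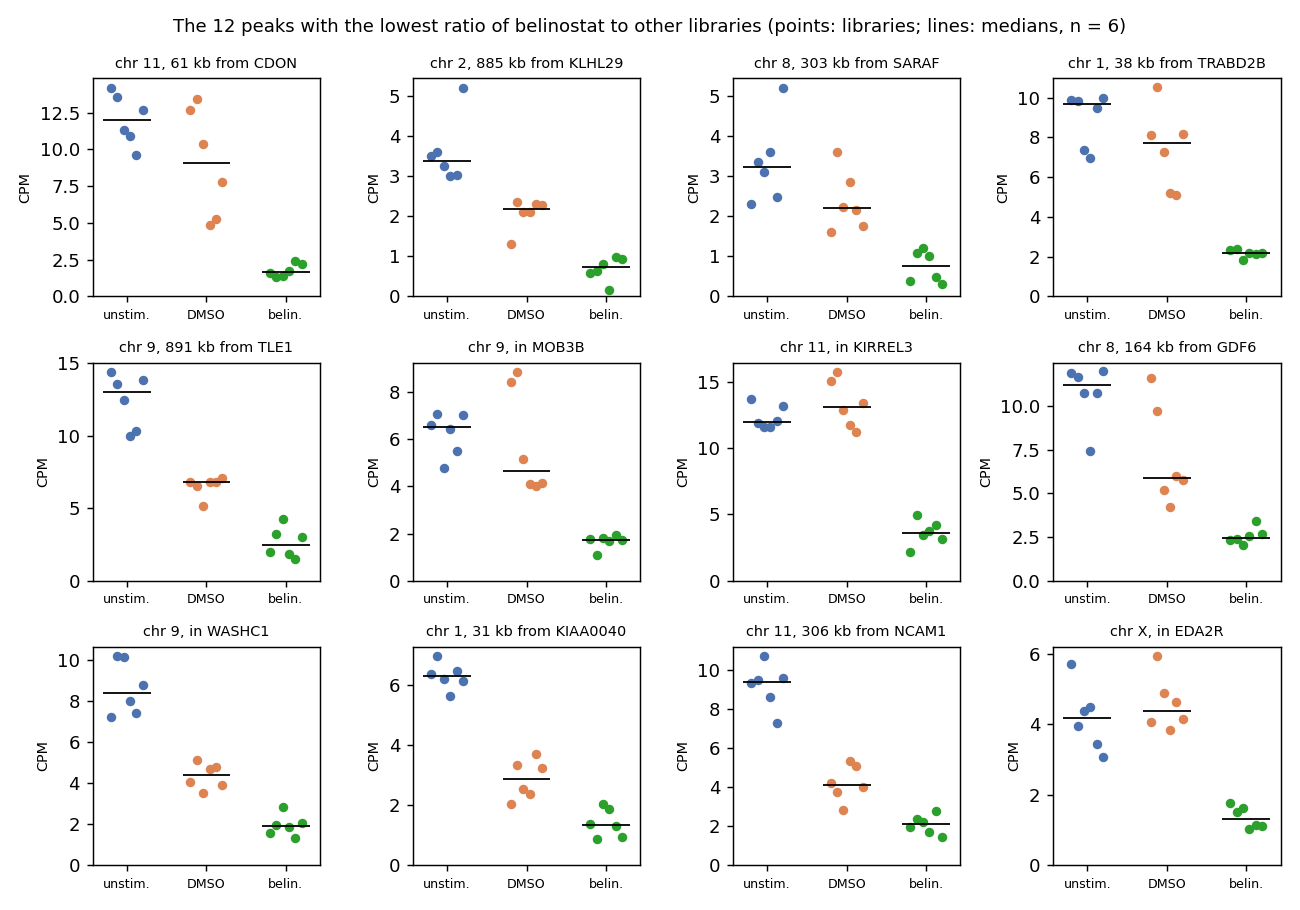
CPM in each library (points) is plotted for the 12 peaks with the lowest ratio, in unstimulated, DMSO and belinostat cells, with lines for medians (n = 6) and an axis from 0 in each panel. Belinostat points lie below all others in every panel by the rule, while the DMSO points overlap the unstimulated ones at KIRREL3, MOB3B and EDA2R and lie below them near NCAM1, TLE1 and KIAA0040.

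The largest peaks of the list were mostly promoters with small falls. The largest sum was at SERTAD2, a transcriptional coregulator gene, where chr2:64750625-64751876 lay over an exon 245 bp from the start. It had 147, 162 and 179 CPM in unstimulated, 148, 153 and 168 CPM in DMSO and 121, 131 and 146 CPM in belinostat libraries. The promoters of KHSRP, which codes for an RNA-binding protein of messenger RNA decay, of BLOC1S3, ABHD2 and MXD4, a MAX-binding repressor of the MYC network, and an exon of SDR42E2 followed. The ratios of these 6 peaks lay between 0.812 and 0.835, and each had a belinostat minus DMSO log2 fold change of -0.31 or -0.33.

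To ask whether the belinostat-low peaks had already moved after cytokines, DMSO libraries were tested against unstimulated libraries. The rule pooled these libraries as one set of 12 and did not use their difference, although it set a floor for both. Of the 1973 peaks, 1070 were called closed, meaning lower in DMSO cells with an adjusted p under 0.05 over all peaks (edgeR's quasi-likelihood test), 1 was called opened and 902 were not called. Among all peaks, 9.73% were called closed and 9.51% opened. The share of 54.2% closed stood beside 55.0% closed and 0.942% opened among other peaks of the same summed count. At an unadjusted p under 0.05, 1410 of the peaks were closed. The median log2 fold change was -0.34, where the peaks with a sum of at least 100 had -0.12. The mean was -0.35, against -0.32 for other peaks of the same summed count.

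These calls moved with the scaling of the libraries. With library totals in place of TMM factors, 450 of the peaks were closed and 22 opened, and the medians were -0.12 for the belinostat-low peaks and 0.09 for the peaks with a sum of at least 100. With loess offsets, which remove a trend with peak strength from each library, 129 were closed, 91 were opened and the medians were -0.0064 and -0.0128. Without unstimulated library 6, 713 were closed. As shares these were 22.8%, 6.54% and 36.1%, and among other peaks of the same summed count 19.5%, 3.64% and 35.6% were closed in the same settings. In each of these settings the belinostat-low peaks kept a belinostat minus DMSO median between -0.55 and -0.70, a contrast that the rule used. On plain CPM, the DMSO mean was below the unstimulated mean in 1544 peaks and above it in 429, with a median ratio of 0.917.

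The strongest closure by p-value was at chr8:72965055-72965817, an intergenic peak 43420 bp from the telomere-binding factor gene TERF1. It fell from 37.5, 43.0 and 45.4 CPM in unstimulated to 20.4, 24.1 and 28.8 CPM in DMSO libraries, and belinostat libraries had 11.2, 13.6 and 15.5 CPM. The log2 fold change from unstimulated to DMSO was -0.99 ± 0.11 (SE, edgeR adjusted p = 8.40e-13). The peak near NCAM1 and one at chr1:38194441-38195022, 147938 bp from the POU-domain gene POU3F1, came next, and the latter had a log2 fold change of -1.31 ± 0.15 (SE, edgeR adjusted p = 1.97e-11). All 3 kept their calls in 27 of 27 other settings. The single opened peak, chr17:55588333-55589470, 77449 bp from SMIM36, had 7.31, 7.67 and 9.78 CPM in unstimulated, 8.94, 11.2 and 16.0 CPM in DMSO and 2.92, 4.69 and 6.26 CPM in belinostat libraries. Its log2 fold change was 0.36 ± 0.14 (SE, edgeR adjusted p = 0.0487), and the call was kept in 15 of 27 other settings, with adjusted p from 1.99e-05 to 0.172.

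**Figure D3:**
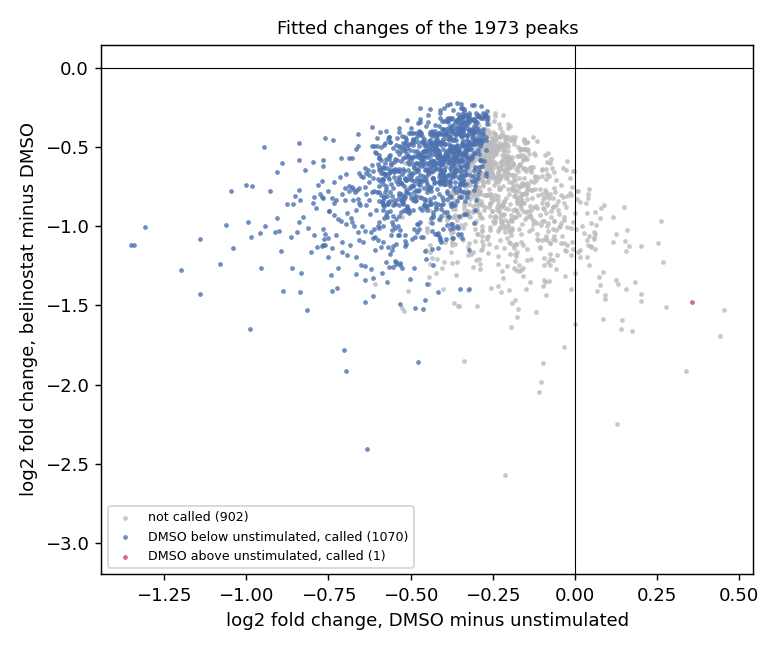
Each point is 1 of the 1973 peaks, with its fitted log2 fold change from unstimulated to DMSO cells on the horizontal axis and from DMSO to belinostat cells on the vertical axis, coloured by its call in the first. Both axes share the DMSO libraries, so their joint shape is not read as a relation. All points lie under 0 on the vertical axis, by the rule, and 69 lie above 0 on the horizontal axis, 1 of them called.

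The belinostat-low peaks were mostly distal. Their centres lay within 3 kb of an annotated gene start in 340 of 1973 peaks, 17.2% (95% Wilson interval 15.6 to 19.0%), against 23.0% of the other peaks with a sum of at least 100 and 35.7% of those after weighting to the same width and count. Introns held 51.2% (49.0 to 53.4%) against 40.0% after weighting, and intergenic sequence 29.2% (27.3 to 31.3%) against 21.2%. Exons were overlapped by 19.5% (17.8 to 21.3%) against 38.8%. From the nearest protein-coding start, 924 peaks, 46.8%, were over 50 kb away, against 34.6%. Peaks near a start had a median ratio of 0.679 and those elsewhere 0.615. No test was run on these shares, and peaks are not independent replicates.

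Their sequence was poorer in G and C than that of comparable peaks. Mean GC content was 47.9%, against 52.2% in other peaks of the same width and count, and CpG dinucleotides numbered 1.45 per 100 bases against 3.20. In 5 equal classes by GC content, the belinostat-low share was 1.07% in the lowest, 1.68% in the next and 0.438% in the highest. Among chromosomes with over 1000 such peaks it went from 0.493% on X and 0.582% on chromosome 19, both below the 1.09% of all peaks with a sum of at least 100, to 1.42% on chromosome 9 and 1.54% on chromosome 20.

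Most of the peaks contained the E-box word CAGCTG. It was found in 1366 of 1973 peaks, 69.2% (95% Wilson interval 67.2 to 71.2%), against 44.3% of other peaks of the same width and 44.5% of those of the same width and count. In the central 200 bases, where width has no part, it was found in 39.5% against 18.8%. At least 2 copies were present in 33.8% of the peaks against 13.9%. Words were searched on both strands in whole peaks, and a base could belong to matches of more than 1 word. A match is a description of the sequence and shows no bound factor.

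The number of copies went with the fall also outside the list. Among peaks 600 to 900 bp wide with a summed count of 1000 to 3000, the belinostat-low peaks were 3.42% of those with no CAGCTG, 7.21% with 1 copy, 11.7% with 2 and 18.8% with 3 or more. Other peaks in the same window of width and count, which the rule left out, had a median belinostat minus DMSO log2 fold change of -0.12 with no copy, -0.17 with 1, -0.19 with 2 and -0.24 with 3 or more. They too were left out on values of that contrast, so these medians are a description. From unstimulated to DMSO cells, the same peaks had medians of -0.35 with no copy, -0.37 with 1, -0.38 with 2 and -0.40 with 3 or more. A lower median with more copies was thus not particular to the belinostat contrast. Within the list the copy number did not track the size of the fall, with a median ratio of 0.631 without the word and 0.619, 0.622 and 0.624 with 1, 2 and 3 copies. Of the sequences shown, the peak inside UMODL1 had 13 copies over its 415 bp, and its belinostat libraries had 1.86, 2.25 and 3.30 CPM against 4.16, 5.39 and 7.26 CPM in DMSO libraries.

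Words of AP-1, CEBP and RUNX factors were also more frequent, and GC-rich promoter words less so. Here and for CAGCTG, other peaks were not weighted for GC content or distance from a start, which also differed. The AP-1 word TGANTCA was in 49.2% (47.0 to 51.4%) of the peaks against 37.8% of other peaks of the same width and count. The CEBP word TTGCNNAA was in 41.2% against 29.9%, the RUNX word TGTGGT in 47.2% against 38.0%, and the TWIST word CATATG, another form of the E-box, in 15.7% against 9.27%. The GC-rich SP/KLF word GGGCGG, common in promoters, was in 18.9% against 37.4%, and the ETS word CCGGAAG in 3.55% against 10.4%. The TEAD word GGAATG was in 37.7% against 41.9%. Of the other 7 E-box forms, searched after the share of CAGCTG was seen, CAGATG stood apart most, at 63.6% against 42.9%, while CACGTG was at 11.2% against 12.6%. The ZEB word CAGGTG, also an E-box form, was in 29.9% against 33.4%, and in the central 200 bases in 6.49% against 8.02%. The NF-kB word GGGANTTCC was in 3.29% (2.59 to 4.18%) against 3.59%, and the GATA word AGATAAG in 7.30% (6.23 to 8.53%) against 7.18%, with both weighted shares inside the intervals.

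Peaks with both the E-box and the AP-1 word had a larger share than among other peaks, and word shares differed with the cytokine call. Both were present in 657 peaks, 33.3%, against 17.0% of other peaks of the same width and count, and neither in 294, 14.9%, against 34.7%. Each word alone was also more frequent, CAGCTG at 69.2% against 44.5% and the AP-1 word at 49.2% against 37.8%. Whether the words went together beyond these single shares was not tested. CAGCTG was in 74.7% of the peaks called closed in DMSO cells and in 62.7% of those not called, while the AP-1 word was in 44.6% and 54.7%. Peaks with a ratio under 0.5 had the AP-1 word in 36.9% and CAGCTG in 67.7%, and peaks with a ratio of 0.7 or more in 53.4% and 66.7%. The former were narrower, with a median of 602.5 bp against 794.5 bp, and no correction for width was made here.

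**Figure D4:**
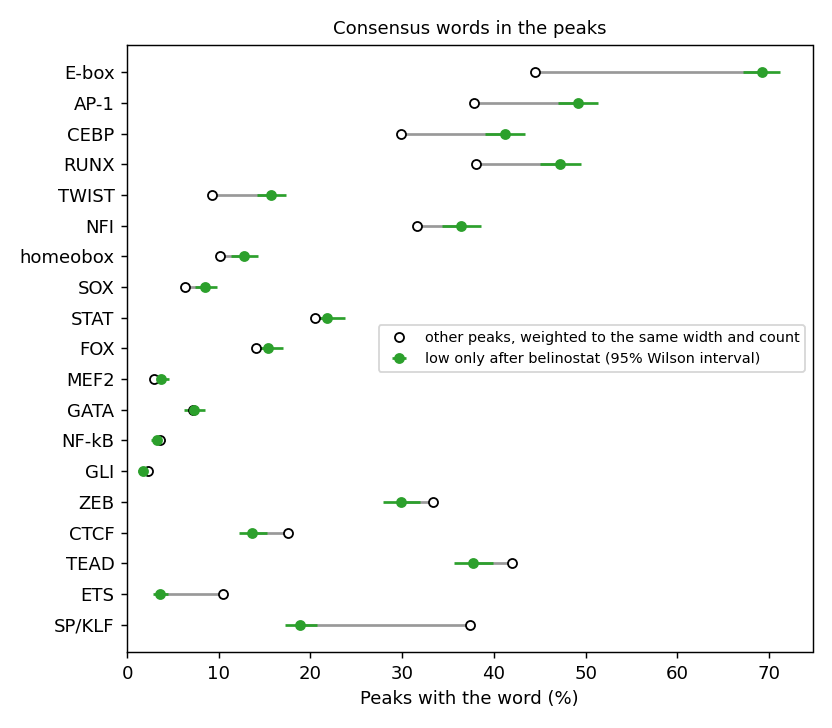
For each of 19 consensus words, the percent of the 1973 peaks that hold it (filled points, bars for 95% Wilson intervals) is set beside the percent of other peaks weighted to the same width and summed count (open points). The E-box word CAGCTG shows the widest gap upward, 69.2% against 44.5%, and the SP/KLF word the widest gap downward, 18.9% against 37.4%.

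Within the belinostat-low peaks, CAGCTG and the AP-1 word were more frequent near the middle than farther out. In steps of 50 bp, CAGCTG occurred 14.6 and 14.2 times per 100 peaks on either side of the centre and 6.36 and 5.88 times at 225 bp from it. The AP-1 word occurred 7.86 and 6.69 times beside the centre and 4.04 and 3.00 times at 225 bp. The SP/KLF word showed no such peak, with 2.94 and 4.00 beside the centre and 3.67 and 3.06 at that distance. No such profile was made for CAGATG or for other peaks, so whether the rise is particular to the belinostat-low peaks was not tested. The AP-1 word was in 49.2% of whole belinostat-low peaks against 37.8% of other peaks of the same width and count. In the central stretch searched above these shares were 25.4% and 19.6%.

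**Figure D5:**
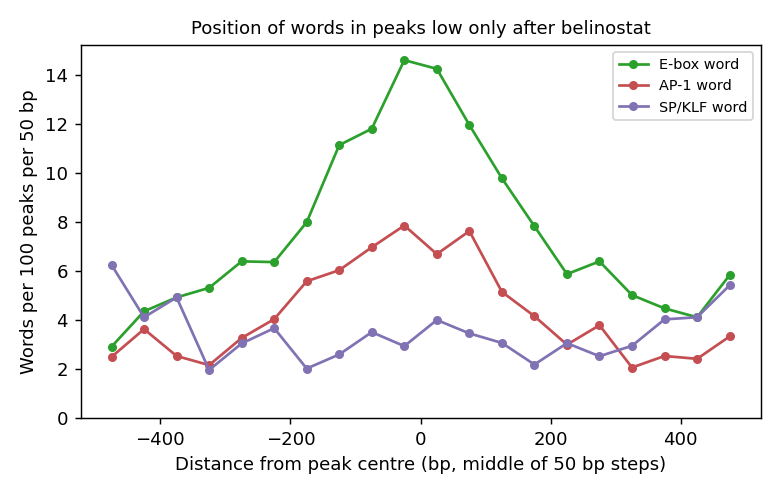
Words per 100 belinostat-low peaks in steps of 50 bp are plotted against the distance of the step's middle from the peak centre in bp, for steps that at least 200 peaks reach. The E-box line rises to 14.6 at the centre, the AP-1 line to 7.86, and the SP/KLF line stays between 1.97 and 6.25.

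The other sets found by the same rule had other shares of CAGCTG, as raw values with no weighting for width or count. The word was in 26.5% of the 514 peaks high in every belinostat library, and in 37.6% of the 1500 peaks low in every unstimulated library. It was in 62.7% of the 1609 peaks that were high in every unstimulated library, a set that like this one lost accessibility after treatment but by the rule did so in both treated groups. The AP-1 word was in 23.3%, 22.1% and 33.0% of these 3 sets. In the 82 peaks high in every DMSO library it was in 62.2%, above the 49.2% of the belinostat-low peaks, and CAGCTG was in 41.5%.

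The peaks were scattered over the genome with some neighbours. Another belinostat-low peak lay within 10 kb of 154, 7.81%, and within 100 kb of 665, 33.7%. The 4440 other peaks within 10 kb of one had a median belinostat minus DMSO log2 fold change of -0.14, with 67.5% below 0, against -0.04 and 54.3% for peaks farther away. With the latter weighted to the same summed count the share was 58.3%, and the means were -0.13 near and -0.04 farther away. Windows of 1 Mb with at least 1 of the peaks numbered 1118 of 2775, and 222 held 3 or more.

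The fullest window on chromosome 7, from 30000000 to 31000000, held 8 belinostat-low peaks among 111. Of these, 3 lay in NOD1, the intracellular sensor of bacterial peptidoglycan, with ratios from 0.597 to 0.739. The lowest of them, chr7:30459541-30460310, had 8.93, 10.1 and 13.7 CPM in belinostat, 15.0, 16.7 and 19.5 CPM in DMSO and 18.1, 19.5 and 20.4 CPM in unstimulated libraries. Another, in an intron of INMT, an amine methyltransferase gene, was the strongest of the 8 with 45.2, 53.0 and 56.8 CPM in belinostat against 67.5, 70.9 and 75.9 CPM in DMSO libraries. In a window on chromosome 2 from 237000000 to 238000000, 8 of 177 peaks were belinostat-low and surrounded COL6A3, which codes for a chain of collagen VI, MLPH and LRRFIP1. On chromosome 3 from 194000000 to 195000000 there were 7 of 152, with the lowest ratio, 0.489, in an intron of a non-coding gene 121417 bp from FAM43A.

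A small number of genes held several of the peaks. The body or 3 kb upstream of 1042 protein-coding genes held at least 1, of 149 genes at least 2 and of 27 at least 3. LHFPL2, a tetraspan membrane protein gene, held 5 among its 46 peaks with a sum of at least 100, all in introns, with ratios from 0.587 to 0.755. RALGPS1, an exchange factor gene for Ral GTPases, held 4 of 54, TENM4, a teneurin adhesion gene, 4 of 74, and RAD51B, a gene of recombinational DNA repair, 4 of 122. JUP, which codes for plakoglobin of cell junctions, held 3 of 8, all in introns 9136 to 13555 bp from its start. The lowest of these, chr17:41773769-41774062, had 4.07, 5.28 and 7.05 CPM in belinostat, 8.43, 9.45 and 13.5 CPM in DMSO and 8.80, 11.2 and 13.7 CPM in unstimulated libraries. Genes that overlap share peaks, as RALGPS1 and ANGPTL2 do for the peak at the start of ANGPTL2.

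Loci of genes that define fibroblast states held 1 or 2 belinostat-low peaks per list, at shares of 1.45%, 1.12% and 1.77% in the order given here, beside 1.09% of all peaks with a sum of at least 100. The loci of 5 transcription factors of inflammatory fibroblasts named by the study (GLI3, TWIST1, ETV4, PRDM1 and RELB) held 1 belinostat-low peak among 69, at the start of RELB, an NF-kB subunit. It had 21.8, 25.0 and 26.8 CPM in belinostat, 27.6, 30.1 and 33.5 CPM in DMSO and 28.8, 33.4 and 37.5 CPM in unstimulated libraries. The paper compared belinostat with cytokine-pulsed cells and reports significantly lower accessibility at all 5 loci. The rule used here is stricter than such a comparison, and the paper's scaling and its assignment of peaks to genes also differ. In the belinostat minus DMSO fit, 3 of the 69 peaks were called closed, beside 3.18% of peaks with a sum of at least 100. Of the 69, 45 had a log2 fold change below 0, beside 55.1% of those peaks. Medians by locus were -0.22 at GLI3, -0.09 at TWIST1, -0.07 at ETV4, -0.02 at PRDM1 and 0.10 at RELB. The loci of 20 secreted and matrix genes of the same state held 1 among 89, 3341 bp from the start of COL7A1, the collagen of anchoring fibrils, and inside UQCRC1. None of the CXCL chemokine, IL6, IL11 or metalloproteinase loci held any. Each of them had only 1 to 4 peaks with a sum of at least 100, too few to read the absence. Their median belinostat minus DMSO log2 fold changes ran from -0.47 at MMP10 to 0.14 at IL6. The loci of contractile genes held 2 among 113, at the start of GREM1, a bone morphogenetic protein antagonist with a ratio of 0.705, and in an intron of MYH11, smooth muscle myosin, with 0.708.

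Signalling and matrix loci held 4 or 5 each. The receptors of the cytokines and their relatives held 4 among 87 peaks, or 4.60%, beside 1.09% of all peaks with a sum of at least 100. Of these, 2 were in introns of IL1R1, the signalling receptor of IL-1, and 2 in introns of TNFRSF1A, a TNF receptor, with ratios of 0.694 and 0.779. The 1.09% is not weighted to width or count, and in the class of peaks with the highest sums the share was 4.14%. The TNFRSF1A peak with a ratio of 0.694 had a sum of 3127, in that class. The IL1R1 peaks had sums of 706 and 279, in classes with shares of 0.974% and 0.159%. At IL1R1 the wider peak, chr2:102100331-102101151, had 1.79, 3.08 and 4.57 CPM in belinostat, 4.76, 6.11 and 8.04 CPM in DMSO and 4.93, 6.71 and 8.80 CPM in unstimulated libraries. TEAD and YAP pathway loci held 5 among 155, or 3.23% beside the same 1.09%, in TEAD1 and in WWTR1, which codes for the coactivator TAZ, among others. TGF-beta loci held 5 among 162, or 3.09%, with peaks in TGFBR3, the co-receptor betaglycan, and SMAD3, a signal transducer. Collagen loci held 4 among 255, or 1.57%, with ratios of 0.496 in COL5A2, 0.591 in COL6A3 and 0.674 in COL5A1. RUNX loci held 4 among 201, and the one in RUNX2, a factor of mesenchymal differentiation, had the lowest ratio, 0.356.

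Loci of RUNX, AP-1, mesenchymal and basic helix-loop-helix factors and of histone deacetylases held between 0 and 4 of the peaks. The RUNX share was 1.99%, beside 1.09% of all peaks with a sum of at least 100. AP-1 loci held 0 among 46, loci of mesenchymal transcription factors such as TWIST1, ZEB1 and TCF12 held 0 among 137, and histone deacetylase loci, the targets of belinostat, held 0 among 178. A list of 31 basic helix-loop-helix genes, added after the share of CAGCTG was seen, held 1 among 186, or 0.538%, in HEYL, a Notch target, with a ratio of 0.760. Counts of this size are descriptions, and no list was tested.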

How the data were processed

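Bulk ATAC-seq (Omni-ATAC) of Ccd18-Co cells gave 18 libraries in 3 groups of 6, taken from the sample titles. The authors aligned reads to hg38 with the ENCODE pipeline, called peaks with MACS2, built a consensus set and deposited raw fragment counts per peak made with csaw. Starts in the table count from 0 and are given here from 1.

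CPM by column sums served the rule. The test was edgeR 4.0.16 (R 4.3.3), quasi-likelihood in its earlier form, with TMM factors over peaks, 1 mean per group over all 18 libraries and Benjamini-Hochberg adjustment over 334857 peaks. The authors normalized on background bins, which a table of counts in peaks does not hold. Alternatives used library totals, bins of peaks, loess offsets (limma 3.58.1) and DESeq2 1.42.0. The fit was tested on simulated data. Gene features came from GENCODE 44 and sequence from the hg38 reference. Distances run from peak centres to the nearest protein-coding start. Weighted shares average other peaks over classes of 100 bp of width and 20 classes of summed count.

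Named peaks were the 12 lowest ratios at a mean of at least 2 CPM, the 6 largest sums, the 3 smallest p-values per direction after cytokines, those of the 3 fullest windows and 5 fullest genes, up to 3 per gene list, and those at the limits of the rule. The peak with the most CAGCTG copies was chosen after its values were seen. Peaks, lists, words and tests were chosen with earlier results of these data known. Wilson intervals cover counting error only. The labels give no batch.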

Additional observations from a re-analysis of the deposited data

Results flagged for a closer look

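Within groups of 6 libraries, 75 sets of values were checked for a library far from the others, and 7 were found, where chance flags about 1 in 20. At the peak chr2:22499896-22500281, DMSO library 1 had 1.31 CPM, where the next lowest had 2.10, and unstimulated library 6 had 5.19 CPM, where the next highest had 3.60. At the peak near GDF6, unstimulated library 4 had 7.40 CPM, where the next lowest had 10.7. In MOB3B, belinostat library 2 had 1.07 CPM, where the next lowest had 1.69. At the peak 891271 bp from TLE1, DMSO library 3 had 5.18 CPM, where the next lowest had 6.51. By the share of all peaks with a count of 0, unstimulated library 6 had 11.3%, where the next highest had 4.20%, and belinostat library 1 had 5.35%, where the next highest had 2.24%. The share of counts in the belinostat-low peaks, their median CPM and the library totals gave no such value.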

How the results depend on the processing

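Between 1341 and 2853 peaks met the rule in 26 other settings, all within 1.5 times of 1973. The 1341 were those of the 1973 with a sum of at least 1000, so that number followed from the setting. With TMM effective library sizes 2535 did, 1575 of them among the 1973, and with loess offsets 1510, of which 1236 were. Without 1 library at a time the number was 2001 to 2853. Leaving out a library loosens the rule and keeps nearly all of the 1973 by construction, so these numbers do not measure stability.

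The cytokine calls were the least stable. Closed peaks numbered 450 with library totals, 129 with loess offsets and 793 to 1239 in the settings that kept within 1.5 times, and opened peaks 22 and 91 with those scalings. Without 1 library at a time, 713 to 1213 were closed and 0 to 2 opened, the lowest number of closed peaks coming without unstimulated library 6. Other peaks of the same summed count followed, with 19.5% closed under library totals, 3.64% under loess offsets and 35.6% without that library, beside 22.8%, 6.54% and 36.1% of the belinostat-low peaks.

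The median log2 fold change from unstimulated to DMSO cells was -0.12 with library totals and -0.0064 with loess offsets. From unstimulated to belinostat cells it was -0.73 and -0.58, and from DMSO to belinostat cells -0.55 with loess offsets. Leaving out libraries gave -0.37 to -0.29, -1.07 to -0.99 and -0.73 to -0.66 in the same order.

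With the replicate number as a block, 1172 peaks were closed and 1 opened, and the medians were -0.34, -1.03 and -0.69. Deviations of same-numbered libraries correlated at -0.19 to 0.154, so the numbers were not taken as pairs. The peaks named above for their closed or opened call after cytokines kept it with the block.

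Within 1 kb of any start lay 8.67% of the peaks, and within 3 kb of a protein-coding start 7.35%. Other peaks weighted to the same width and count had 26.5% and 26.1%. In the central 200 bases the shares with each word were 25.4% for AP-1, 14.0% for TEAD, 18.0% for RUNX, 0.710% for ETS, 3.95% for CTCF, 39.5% for E-box, 5.27% for TWIST, 6.49% for ZEB, 1.32% for NF-kB, 17.4% for CEBP, 1.72% for GATA, 8.82% for SP/KLF, 6.28% for FOX, 7.05% for STAT, 13.1% for NFI, 0.456% for GLI, 1.01% for MEF2, 2.89% for SOX, 3.65% for homeobox. From AP-1 to CEBP, weighted other peaks had 19.6%, 17.1%, 14.5%, 3.75%, 5.10%, 18.8%, 2.82%, 8.02%, 1.01% and 10.8% in the same order. From GATA to homeobox they had 2.07%, 21.7%, 6.16%, 6.29%, 10.9%, 0.489%, 0.688%, 1.64% and 2.77%. A shorter stretch holds fewer matches, so these shares lie below those of whole peaks in both sets.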
